A study of Mus musculus with 17 samples.

Results

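The difference between pups of 2 kinds of dam was compared between day 14 and day 42 of life in small intestinal epithelium. Members were the 12 libraries labelled DOL14 or DOL42, out of 17 in the series, with 3 libraries for each dam at each day, and the remaining 5 libraries (DOL24) were not used. All pups were Igha -/+ on a C57BL/6 background and differed in the mother: a B6 dam (control) or an IgA -/- dam, which gives no maternal IgA. Epithelial cells were sorted as EpCAM+ CD45- Ter119-, and their RNA was sequenced after SMART-seq amplification. The series addressed how maternal IgA bears on the epithelium of the young, and the question here was which differences between the dams at day 14 had gone by day 42. The labels give no litter, and the dam's genotype, her milk and the parent from which each Igha allele came cannot be told apart. What reads as a date in the column names differed between the dams at day 14 and was shared at day 42, so that at day 14, and hence in the comparison of the days, date and dam cannot be told apart. It also differed between the days within each dam, so age and date cannot be told apart there. Nothing in the labels says that replicates came from separate litters, so the p-values measure only the spread between these samples.

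As background, a suckling mouse makes almost no IgA of its own and receives it in milk, where it binds gut bacteria. The suckling epithelium takes up milk macromolecules into large lysosomes of the ileal enterocyte, a function that is lost at weaning, when the adult pattern of enterocytes and Paneth cells takes over. Goblet cells secrete the mucin and the trefoil and lectin proteins of the mucus layer. Paneth cells secrete antimicrobial peptides, and enteroendocrine cells secrete hormones.

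Values are TPM (transcript abundance per length, as a share of the library) divided by a size factor per library, called scaled TPM below, and differences are on the log2(scaled TPM + 1) scale, as IgA -/- dam minus B6 dam. Recovered reads ranged from 8281822 to 17119640 per library and were lowest with the IgA -/- dam at day 14 (8281822 to 11060596). In those 3 libraries 24.7% to 30.9% of TPM lay outside mitochondrial genes and the ribosomal repeat Gm23935, against 16.7% to 19.9% in the other 9, and the size factors, up to 1.56, were the highest of the 12. The epithelial markers summed to 1928 to 3289 scaled TPM, and Ptprc, which encodes CD45, reached at most 0.866. T cell markers lay between 2.37 and 4.66 in sum under the B6 dam at day 14 and between 0.520 and 1.05 under the IgA -/- dam, to at most 9.003 in 5 libraries at day 42, and to 43.1 in the B6 dam day 42 replicate 1 library, which also had the lowest correlation with others of its group (0.938). The Y-linked Ddx3y was between 5.28 and 6.86 and Xist at most 0.1005 in every library.

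The dams differed at day 14 far more than at day 42, and goblet cell genes stood among the differences that had gone. Muc2, Tff3, Zg16, Fcgbp and Ccl6 were already high at day 14 with the IgA -/- dam, while with the B6 dam they reached that range only by day 42. In the opposite direction, Gpx3, Lgmn and Ctsl were highest at day 14 with the B6 dam and far lower in the other groups. At day 14 the IgA -/- mean of Gpx3, 24.6 scaled TPM, still stood above both day 42 means (3.10 and 4.17). The difference between the days passed in 208 of 14925 genes (1.39%; limma, Benjamini-Hochberg adjusted p under 0.05), with 2510 genes at an unadjusted p under 0.05. It was negative in 146 genes (0.978%), meaning higher with the IgA -/- dam at day 14 relative to day 42, and positive in 62 (0.415%). The largest adjusted p that passed was 0.0498 and the smallest that did not was 0.0508.

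The split between the directions moved with the processing and with 1 library. On TPM as deposited, which moved the median of all genes by -0.31, 227 genes passed and 3 were positive (1.32%, against 29.8% after scaling). Positive changes became the majority without the B6 dam day 14 replicate 3 library (178 of 336, 53%) and with library weights (855 of 1635, 52.3%). The count also moved with single libraries, from 54 without the IgA -/- dam day 42 replicate 2 library to 336 without the B6 dam day 14 replicate 3 library, and 45 of the 208 genes passed with each library left out in turn.

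At day 14 the dams differed in 1586 genes (10.6%), of which 870 were higher (5.83%) and 716 lower (4.8%) with the IgA -/- dam. On TPM as deposited 97.1% of 2890 were higher, against 54.9% after scaling, whereas lower genes were the majority without the B6 dam day 14 replicate 3 library (46.6% of 1740 higher) and with library weights (45.3% of 4546 higher). At day 42 none passed (0%) in limma or in limma-voom on recovered reads, with 519 and 477 genes at an unadjusted p under 0.05. The 870 genes had a median difference of 0.68 at day 14 and 0.03 at day 42, and the 716 genes one of -0.49 and 0.00. Both sets were chosen by their day 14 values, which favours wide day 14 medians and hence some drop by day 42. A day 14 difference was counted as gone where it passed at day 14, the comparison of the days passed in the opposite direction, and the day 42 difference had an unadjusted p of at least 0.05. That held for 174 genes (1.17% of those tested, 10.97% of the day 14 calls), 125 of them higher and 49 lower with the IgA -/- dam at day 14. Since the day 14 libraries enter both calls, this count is a description and was not tested. In all 174 the dams did not overlap at day 14, against 31.3% of genes tested. The rule requires a day 14 call and so selects for this. At day 42 the dams overlapped in 149 of the 174. That is a smaller share than among all genes tested, of which 8.21% did not overlap. The 95% interval of the day 42 difference lay within 1 log2 unit of 0 in 163 genes and within 1.5-fold in 141.

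For the other 1412 day 14 calls the data did not decide. Their day 42 difference had the same sign as at day 14 in 56.8%, with a median of 0.02 in the day 14 direction against a median size of 0.55 at day 14. These genes too were chosen by their day 14 values, which favours some drop. The day 42 interval excluded the day 14 estimate in 1349 of them, although the test of the days did not pass or the day 42 difference had an unadjusted p under 0.05. No gene was called at both days. In 33 genes that passed both at day 14 and between the days, the day 42 difference had an unadjusted p under 0.05. Of these, 32 had the opposite sign at day 42, and Chga, chosen here after its value was seen as the only exception, kept its sign. A day 42 difference of the same sign makes the change between the days smaller, so this selection favours opposite signs. Nothing is read from the count, and none of these genes passed at day 42.

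**Figure D1:**
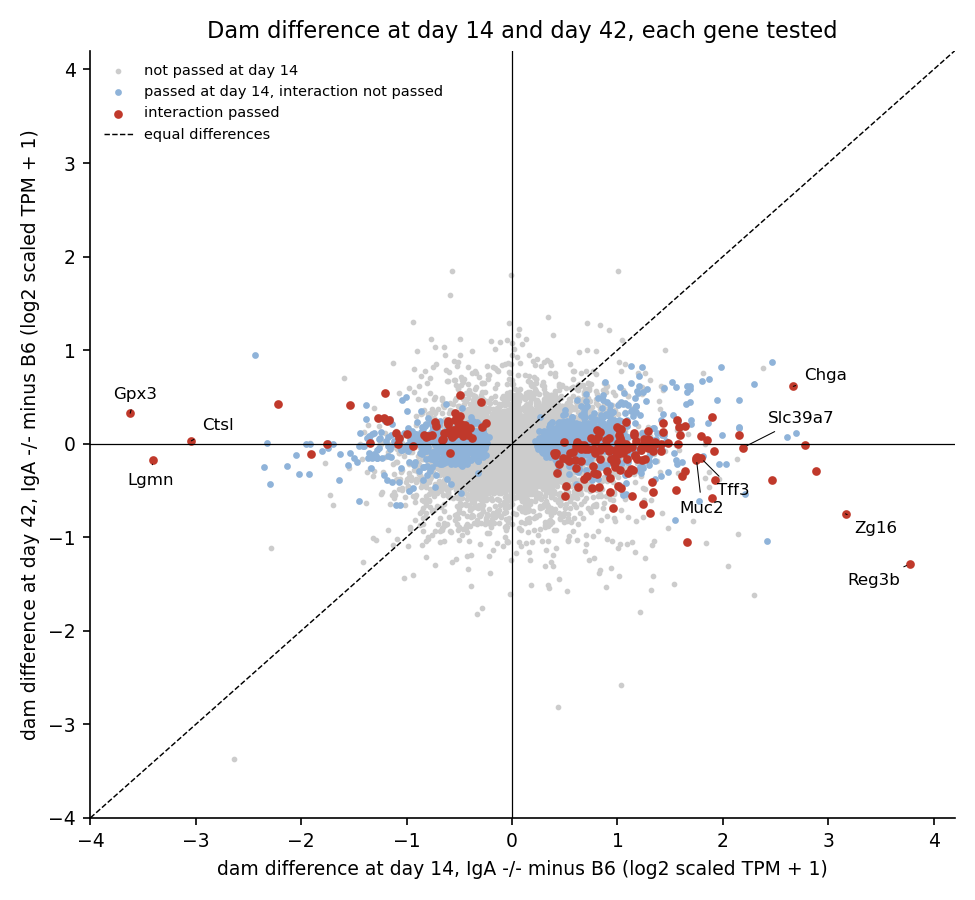
Each point is a gene tested, with the dam difference at day 14 on the x axis and at day 42 on the y axis (both IgA -/- minus B6, log2 scale); red points passed the test between the days. The red points lie off the dashed line of equal differences, with Gpx3 at -3.62 and 0.33, while Zg16 (3.16 and -0.75) and Reg3b (-1.29 at day 42) lie below the horizontal line at 0.

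Promoters of genes from both ends of this comparison are shown because goblet genes moved together and opposite to the lysosomal genes. They are the 250 bases before the first listed start, from RefSeq (GRCm38.p6), 5′ to 3′ on the gene's strand. The RefSeq starts of Gpx3 and Lgmn lie downstream of their starts in the annotation used for gene positions. The Gpx3 window falls inside the gene interval given below. The Lgmn window runs into its gene, which starts at chr12:102439813 on the minus strand, and the marked TTATA lies inside the gene. They come from chr7:141690090-141690339 (plus strand) and chr7:28070986-28071235 (plus strand) for 2 mucus proteins, and from chr11:54902604-54902853 (plus strand) and chr12:102439729-102439978 (minus strand) for 2 genes high with the B6 dam at day 14. Capitals mark 3 motifs on either strand, chosen after the sequences were seen. The first, the core of a TATA box, is TATAA, which can overlap its own reverse. The next, the core of an Sp1 site, is GGGCGG. The last, an E-box, is CAGCTG.
Muc2: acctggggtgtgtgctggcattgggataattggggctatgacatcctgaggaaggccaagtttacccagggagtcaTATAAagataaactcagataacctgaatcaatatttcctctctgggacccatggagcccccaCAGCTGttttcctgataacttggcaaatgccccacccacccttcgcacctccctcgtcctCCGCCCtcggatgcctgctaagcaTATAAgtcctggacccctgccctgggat
Fcgbp: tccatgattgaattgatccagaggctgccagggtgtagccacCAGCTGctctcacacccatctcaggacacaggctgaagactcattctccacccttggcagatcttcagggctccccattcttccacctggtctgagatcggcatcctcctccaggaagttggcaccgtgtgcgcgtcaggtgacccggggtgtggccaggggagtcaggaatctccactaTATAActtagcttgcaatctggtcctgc
Gpx3: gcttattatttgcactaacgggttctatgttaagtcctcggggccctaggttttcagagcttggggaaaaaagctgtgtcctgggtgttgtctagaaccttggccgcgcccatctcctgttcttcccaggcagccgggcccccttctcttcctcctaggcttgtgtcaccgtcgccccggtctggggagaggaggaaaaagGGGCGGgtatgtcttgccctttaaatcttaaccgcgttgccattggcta
Lgmn: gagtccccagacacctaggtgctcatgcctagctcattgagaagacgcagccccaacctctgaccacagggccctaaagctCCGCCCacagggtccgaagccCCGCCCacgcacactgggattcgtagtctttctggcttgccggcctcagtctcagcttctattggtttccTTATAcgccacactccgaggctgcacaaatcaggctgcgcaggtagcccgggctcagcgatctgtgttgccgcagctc
CAGCTG stood in 23.8% of the 21 promoters matched among the 34 gone genes that had risen further with the B6 dam, in 25.6% of the 39 matched among the 91 that had fallen further with the IgA -/- dam, in 2 of the 14 among the 27 that had risen further there, in 12.8% of all 27025 promoters and in 11.4% of the 8952 matched to genes tested. TATAA stood in 19% of the same 21 and 12.4% of the promoters of genes tested, and GGGCGG in 42.9% and 59.2%. Among the 16 promoters matched to the 22 lower genes described below with the B6 dam, GGGCGG stood in 68.8%, TATAA in 18.8% and CAGCTG in 6.25%. The 5 of 21 promoters with CAGCTG include Muc2 and Fcgbp, whose sequences were seen when the motifs were chosen. Both also hold TATAA. The promoter of Reg3b, not shown, held 2 TATAA, which overlap on opposite strands as TTATAA, and 0 CAGCTG. Its window, chr6:78370635-78370884, lies mostly inside the gene interval given below. These matches describe the sequence and were not tested.

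Goblet cell genes made up the clearest group. Of 20 goblet genes tested, 16 were higher with the IgA -/- dam at day 14 and none lower, 9 passed between the days, all negative, and all 9 had gone by day 42. Over all genes tested, 5.83% were higher at day 14, 0.978% passed as negative between the days and 1.17% had gone. The median goblet difference was 1.21 at day 14 and 0.00 at day 42, against -0.02 and -0.01 over all genes tested. From day 14 to day 42 goblet genes rose in 17 of 20 with the B6 dam (median 1.59) and in 6 of 20 with the IgA -/- dam (median 0.33). The median level of the 20 genes was 2.91 to 3.46 (log2) in the B6 libraries at day 14, 4.23 to 4.42 with the IgA -/- dam at day 14, and 4.43 to 5.07 in the 6 libraries at day 42. The number of goblet genes that passed between the days ranged from 4 to 10 of 20 when a library was left out, and fell to 4 without each of the IgA -/- dam day 42 replicates 2 and 3 and the B6 dam day 42 replicate 3, to 5 without the B6 dam day 14 replicate 1 or the IgA -/- dam day 42 replicate 1, and to 6 without the IgA -/- dam day 14 replicate 1. It was 11 on TPM as deposited, 10 of 18 in limma-voom and 14 with library weights. With no filter it fell to 4, and to 5 of 17 with TPM recomputed without mitochondrial and the 50 highest genes. In bulk RNA, more goblet cells and more RNA per goblet cell cannot be told apart.

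Muc2, the gel-forming mucin of intestinal mucus (chr7:141690340-141754693, GRCm38), had 68.6, 45.3 and 61.6 scaled TPM with the B6 dam at day 14 and 250.4, 174 and 173 with the IgA -/- dam. At day 42 it had 394, 300.0 and 319 with the B6 dam and 306, 306 and 289 with the IgA -/- dam. The groups were apart at day 14 and overlapped at day 42. The dam difference was 1.75 at day 14 (SE 0.18) and -0.16 at day 42 (95% interval -0.56 to 0.25), and the change between the days was -1.91 (SE 0.26, limma adjusted p = 0.0095). Muc2 rose by 2.52 with the B6 dam and by 0.61 with the IgA -/- dam, and its call held with each library left out and under every other setting run.

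Tff3, the trefoil peptide secreted with mucin (chr17:31125306-31129646), had 175, 119 and 139 scaled TPM with the B6 dam and 631, 448 and 429 with the IgA -/- dam at day 14. At day 42 its means were 570.3 ± 62.8 and 512 ± 46.9 (SD, n = 3 each), so that the IgA -/- level at day 14 (503 ± 112) was already that of day 42. The change between the days was -1.94 (SE 0.25, limma adjusted p = 0.0084). Ccl6, a chemokine listed with the goblet genes, had 30.0, 17.1 and 20.6 scaled TPM with the B6 dam and 122, 64.9 and 80.1 with the IgA -/- dam at day 14, and overlapped at day 42 with means of 97.8 ± 19.3 and 73.3 ± 4.80. Its change of -2.31 (SE 0.35, limma adjusted p = 0.016) and that of Fer1l6, a ferlin (-1.40, SE 0.20, adjusted p = 0.014), also passed in every setting run.

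Zg16, a lectin of the mucus that binds Gram-positive bacteria (chr7:127050156-127087328), had the widest change of the list. It had 18.03, 8.005 and 19.2 scaled TPM with the B6 dam and 245, 103 and 96.5 with the IgA -/- dam at day 14. At day 42 it had 546, 175 and 257 with the B6 dam and 146, 229 and 154 with the IgA -/- dam, and the groups overlapped. Its change between the days was -3.91 (SE 0.68, limma adjusted p = 0.027), which did not pass without the B6 dam day 14 replicate 1, the B6 dam day 42 replicate 3 or any 1 of the IgA -/- dam day 42 libraries (limma adjusted p from 0.024 to 0.069 with 1 library left out). Fcgbp, a mucin-like protein crosslinked into mucus, had means of 132 ± 31.6 and 419 ± 129.5 scaled TPM at day 14 and 456 ± 59.5 and 372 ± 53.0 at day 42 (B6 first, SD, n = 3). Its change was -1.94 (SE 0.33, limma adjusted p = 0.026), and was lost without the B6 dam day 42 replicate 3 or any 1 of the IgA -/- dam day 42 libraries (limma adjusted p from 0.027 to 0.066 with 1 library left out).

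Further genes of mucus, of glycan synthesis and of the secretory pathway, chosen after their values were seen, were among those that had gone. Agr2, the disulfide isomerase needed for mucin folding, had a difference of 1.90 at day 14 and 0.29 at day 42, with a change of -1.61 (limma adjusted p = 0.038). Ern2, the stress sensor of mucus-producing cells, went from 1.29 to 0.13, and the granule proteins Sytl2 and Bcas1 from 1.002 to 0.002 and from 1.30 to 0.04. Gcnt3 and Gmds, which act in mucin O-glycan branching and GDP-fucose synthesis, went from 1.15 to 0.09 and from 0.58 to -0.09, Fut8, a fucosyltransferase, from 0.63 to -0.01, and Rrbp1, a ribosome-binding protein of the rough endoplasmic reticulum, from 0.84 to -0.07. The mucin Muc3a went from 1.22 to -0.07. Of these 9, Rrbp1 passed with each library left out, Muc3a in 9, Bcas1 in 7, Gcnt3 in 4 and Sytl2 in 3 of the 12 such fits. Agr2, Ern2, Gmds and Fut8 passed only without the B6 dam day 14 replicate 3 or the B6 dam day 42 replicate 1 library (limma adjusted p up to 0.096, 0.10, 0.088 and 0.096 with another library left out). The list of 22 unfolded protein response genes had none that passed between the days and 1 higher at day 14, near the 5.83% of all genes tested. Atoh1, a transcription factor of the secretory lineage, went from 0.96 at day 14, where it passed, to 0.17 at day 42, a change of -0.79 that did not pass (SE 0.29, limma adjusted p = 0.20). Spdef, another, passed at neither day (0.72 and 0.25).

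**Figure D2:**
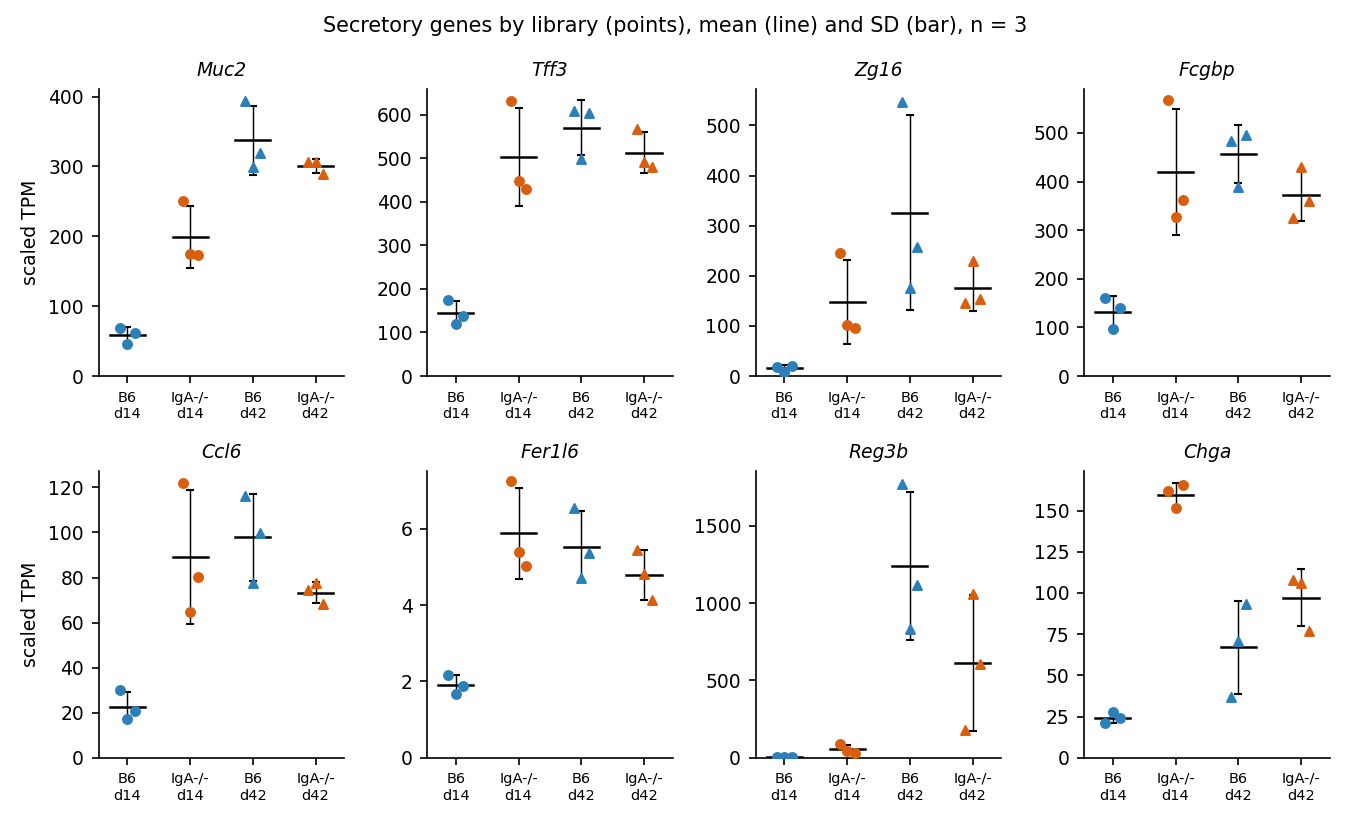
Scaled TPM of 8 secretory genes in each library (points), with the mean (line) and SD (bar) of 3 libraries, for the B6 dam (blue) and the IgA -/- dam (orange) at day 14 (circles) and day 42 (triangles). In Muc2, Tff3 and Ccl6 the B6 libraries at day 14 stand below all other groups, while Reg3b is highest at day 42.

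Other secretory and antimicrobial genes gave a mixed picture. Reg3b, a bactericidal lectin of the enterocyte and Paneth cell (chr6:78370657-78373466), had 2.86, 3.57 and 1.93 scaled TPM with the B6 dam and 86.1, 43.7 and 33.2 with the IgA -/- dam at day 14. At day 42 it had 1767, 835 and 1119.5 against 178, 1056 and 604. The dams were apart at day 14 and overlapped at day 42, where the B6 dam had the higher mean. Its change between the days was the widest of the named genes (-5.06, SE 0.82, limma adjusted p = 0.021), but it did not count as gone, since the day 42 difference was -1.29 with an unadjusted limma p of 0.049. It rose with age under both dams, by 8.31 and 3.25, and its call was lost without the B6 dam day 14 replicate 1 or the B6 dam day 42 replicate 3 (limma adjusted p from 0.02 to 0.052 with 1 library left out), and in limma-voom (adjusted p = 0.064). The related Reg3g had a change of -3.45 that did not pass (limma adjusted p = 0.096).

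Enteroendocrine genes differed at day 14, and their change between the days passed in 1 gene in the main setting and in up to 14 in others. Of 26 tested, 16 were higher with the IgA -/- dam at day 14, against 5.83% of all genes tested. Between the days 1 passed (against 1.39%) and 0 had gone, with medians of 1.43 at day 14 and 0.48 at day 42. The day 14 count fell to 10, 9 and 10 without the B6 dam replicate 1 and the IgA -/- dam replicates 1 and 3 of that day. Without the B6 dam day 42 replicate 1 library, 7 passed, 6 had gone and the median at day 42, less that of all genes, was 0.07. With library weights 14 passed and all 14 had gone, the same count as among goblet genes. It was 4 of 22 with a TPM of at least 5, 3 on TPM as deposited and 2 of 25 in limma-voom. The count was 0 after quantile normalisation, with no filter, with a replicate block or with TPM recomputed without mitochondrial and the 50 highest genes. Chga, the granin of hormone granules, had 21.3, 27.6 and 24.29 scaled TPM with the B6 dam and 162, 152 and 165 with the IgA -/- dam at day 14, and 36.9, 70.6 and 93.4 against 108, 106 and 77.2 at day 42. The dams were far apart at day 14 and overlapped at day 42. Its change was -2.06 (SE 0.39, limma adjusted p = 0.037), and 0.61 of the difference was left at day 42 (95% interval 0.01 to 1.22). The call was lost when any library but the B6 dam day 14 replicate 3 or day 42 replicate 1 was left out (limma adjusted p from 0.0041 to 0.089 with 1 library left out). The hormones Nts and Pyy had day 14 differences of 2.60 and 2.15 and changes of -2.53 and -1.97 that did not pass (limma adjusted p = 0.060 and 0.066).

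Paneth genes moved with 1 library. Of 19 tested, 2 were higher at day 14 and Mmp7, the protease that activates defensins, was the 1 that passed between the days (-1.85, SE 0.38, limma adjusted p = 0.045). Over all genes tested 5.83% were higher at day 14 and 1.39% passed between the days, and nothing is read from counts this small. Mmp7 was lost when any library but the B6 dam day 42 replicates 1 or 2 was left out (limma adjusted p from 0.042 to 0.094 with 1 library left out). The Paneth median was 0.85 at day 14 and -0.91 at day 42, and the latter, less that of all genes, became -0.06 without the B6 dam day 42 replicate 1 library. In that library the median Paneth level was 5.59 (log2), against 3.22 to 4.52 in the other 5 at day 42. The Paneth day 14 count became 8 without that library and 7 on TPM as deposited, and 1 without the B6 dam day 14 replicate 2 library. Of 13 tuft cell genes, 3 were higher at day 14 (against 5.83% of all genes tested) and none passed between the days, with medians of 0.62 at day 14 and 0.60 at day 42. Less the median of all genes, these were 1.85 and 0.68 in limma-voom, 1.48 and 0.67 with a pseudocount of 0.1, 1.33 and 0.67 with TPM recomputed without mitochondrial and the 50 highest genes, and 0.64 and 0.17 without the IgA -/- dam day 42 replicate 1 library. The day 14 tuft count was 0 in limma-voom, 1 without any single day 14 library and 7 without the IgA -/- dam day 42 replicate 1 library, where 1 gene passed between the days. Sh2d6, the tuft gene with the smallest p between the days, had differences of 1.44 and 0.60 and a change of -0.84 (limma adjusted p = 0.33).

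**Figure D3:**
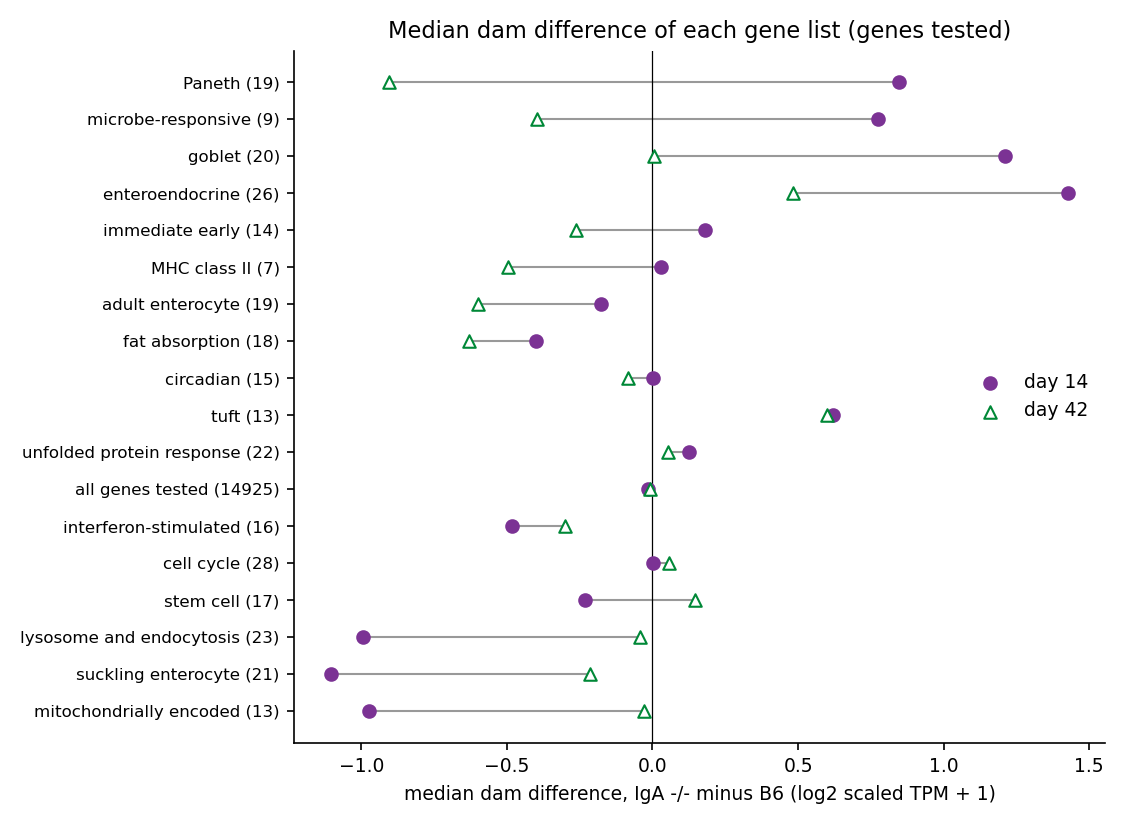
Median dam difference (IgA -/- minus B6, log2 scale) of the tested members of each gene list at day 14 (filled circles) and day 42 (open triangles), with the number tested in parentheses. The goblet median goes from 1.21 to 0.00 and the lysosomal one from -0.996 to -0.04; the tuft medians, 0.62 and 0.60, come apart in other settings.

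Genes of the suckling enterocyte and its lysosomes were the counterpart, lower with the IgA -/- dam at day 14. Of 23 lysosome and endocytosis genes tested, 13 were lower at day 14 and none higher, against 4.8% lower over all genes tested. Between the days 2 passed (both positive, against 0.415%) and both had gone. The lysosomal median was -0.996 at day 14 and -0.04 at day 42. Of 21 suckling enterocyte genes, 9 were lower and 1 higher at day 14, against 4.8% and 5.83% of all genes tested. Of the 21, 1 passed between the days and had gone, and the median went from -1.10 to -0.22. The B6 dam day 14 replicate 3 library had lysosomal and suckling medians of 3.75 and 3.57 (log2), between the other 2 B6 libraries (4.59 to 4.90 and 4.96 to 5.23) and those of the IgA -/- dam (3.06 to 3.48 and 3.14 to 3.51). Without that library 13 lysosomal and 6 suckling genes passed between the days, all gone by the rule, and without any other single library 0 lysosomal and 0 to 2 suckling genes passed. With library weights 13 suckling genes passed and all had gone, whereas 0 passed with no filter, with a replicate block or in limma-voom. The lower lysosomal calls at day 14 fell to 3 without the B6 dam replicate 1 or the IgA -/- dam replicate 2 of that day, to 6 without the B6 dam replicate 2, to 8 without the IgA -/- dam replicates 1 or 3, and to 4 on TPM as deposited. The suckling ones fell to 4 without the B6 dam replicate 1, to 5 without the B6 dam replicate 2 or the IgA -/- dam replicate 2, and to 6 without the IgA -/- dam replicates 1 or 3 or on TPM as deposited. Macrophage and dendritic cell markers, 2 of 12 of which passed the filter on low values, summed to 3.24 to 10.1 scaled TPM with the B6 dam at day 14, 1.72 to 3.61 with the IgA -/- dam at day 14 and 1.62 to 4.89 at day 42. Their part in the result was not tested.

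Gpx3, a secreted glutathione peroxidase (chr11:54902453-54910377), had 395, 616 and 120.4 scaled TPM with the B6 dam and 21.9, 19.99 and 32.1 with the IgA -/- dam at day 14. At day 42 it was low in all libraries, from 2.46 to 4.16 (B6 dam) and from 3.03 to 5.59 (IgA -/- dam). The dams were apart at day 14 and overlapped at day 42. The dam difference went from -3.62 (SE 0.48) to 0.33 (95% interval -0.74 to 1.39), a change of 3.95 (SE 0.68, limma adjusted p = 0.027). Gpx3 fell with age under both dams, by 6.26 with the B6 dam and by 2.31 with the IgA -/- dam. The change passed in 4 of the 12 fits that left out a library, those without the B6 dam day 14 replicates 2 or 3, the IgA -/- dam day 14 replicate 3 or the B6 dam day 42 replicate 1 (limma adjusted p from 0.0015 to 0.075 with 1 library left out), and did not pass in limma-voom (adjusted p = 0.077).

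Lgmn and Ctsl, which encode the lysosomal proteases legumain and cathepsin L, followed the same course. Lgmn had 130.1, 226 and 42.0 scaled TPM with the B6 dam and 7.87, 7.78 and 12.7 with the IgA -/- dam at day 14, and 4.22 to 6.05 and 3.50 to 5.54 at day 42. Ctsl had 63.2, 97.0 and 18.5 against 4.36, 4.40 and 6.58, and 1.27 to 1.57 and 1.40 to 1.55 at day 42. In both genes the dams were apart at day 14 and overlapped at day 42. Their changes were 3.23 (SE 0.67, limma adjusted p = 0.048) and 3.07 (SE 0.63, adjusted p = 0.047), and each passed in 1 of the 12 fits that left out a library, the one without the B6 dam day 14 replicate 3. The limma adjusted p with 1 library left out ran from 0.0031 to 0.11 for Lgmn and, for Ctsl, from 0.00057 to 0.11. Among lysosomal genes 0 passed after quantile normalisation, with a pseudocount of 5, with no filter, with a replicate block or in limma-voom. The count stayed at 2 with a pseudocount of 0.1, robust moderation or a TPM of at least 5, and was 17 with library weights. Gaa, the lysosomal glucosidase, changed by 1.14 (SE 0.22, limma adjusted p = 0.040), from a mean of 10.1 ± 2.91 against 4.13 ± 0.236 scaled TPM at day 14 to 3.92 ± 0.0957 against 4.13 ± 0.297 at day 42 (SD, n = 3). It passed only without the B6 dam day 14 replicates 2 or 3 among those fits (limma adjusted p from 0.0025 to 0.10 with 1 library left out).

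Mfge8, a secreted bridge to phosphatidylserine, had 13.6, 18.4 and 9.96 scaled TPM with the B6 dam against 4.603, 5.004 and 5.59 at day 14, and 4.43, 5.63 and 4.63 against 5.99, 6.75 and 5.65 at day 42. The dams did not overlap at either day and stood in opposite order, but the day 42 difference of 0.28 had an interval from -0.11 to 0.66. Its change was 1.54 (SE 0.25, limma adjusted p = 0.020). Mreg, Lhpp and Galk1, the first a melanoregulin, the others a phosphatase and the galactokinase that admits milk galactose to metabolism, changed by 1.21, 0.88 and 0.91 (limma adjusted p = 0.020, 0.020 and 0.043). Mfge8 and Mreg were lost without the B6 dam day 14 replicate 1, the B6 dam day 42 replicate 3 or the IgA -/- dam day 42 replicates 1 or 2 (up to an adjusted limma p of 0.062 and 0.059). Lhpp was lost without the first and the last 2 of these (up to 0.062), and Galk1 passed only without the B6 dam day 14 replicate 3 (up to 0.11). On TPM as deposited Lgmn, Gaa, Mfge8, Mreg, Lhpp and Galk1 kept their direction and did not pass, whereas Gpx3 and Ctsl passed.

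Other suckling genes differed at day 14 and could not be followed, since they were near 0 by day 42. Cym, the milk-clotting protease, ranged from 94.5 to 114 scaled TPM at day 14 under the B6 dam and from 27.9 to 39.7 under the IgA -/- dam, and at most 0.875 in any library at day 42. Its change of 1.25 did not pass (limma adjusted p = 0.062) and was 0.31 with a pseudocount of 0.1 in place of 1. Folr1, a folate receptor, had means of 55.4 ± 28.95 and 12.1 ± 2.16 at day 14 and of 0.212 ± 0.101 and 0.205 ± 0.0922 at day 42 (SD, n = 3). At day 42 both dams had a mean under 1 scaled TPM in 59 of the 716 lower and 125 of the 870 higher day 14 calls. Fcgrt, the neonatal Fc receptor, and Pigr, the transporter of IgA, did not pass between the days, with changes of 1.07 and -0.36 (limma adjusted p = 0.40 and 0.55).

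The gone genes were sorted into 4 sets, by their direction at day 14 and by which dam's pups had moved further between day 14 and day 42. Of the 125 gone genes that were higher at day 14, 34 had moved further with the B6 dam, and all 34 rose with age there (background 10.9%); they hold the goblet genes above. The other 91 had moved further with the IgA -/- dam and all 91 fell with age there (background 12.8%). Of the 49 gone genes that were lower, 22 had moved further with the B6 dam and all fell there (background 9.89%), Gpx3, Lgmn, Ctsl, Mfge8, Gaa, Galk1 and Lhpp among them. The other 27 had moved further with the IgA -/- dam and all rose there (background 13.7%). A rise or fall with age here is day 42 against day 14, where age and date cannot be told apart within a dam. A negative change between the days leaves only a larger rise with the B6 dam or a larger fall with the IgA -/- dam. A positive change leaves only the reverse. The directions in the 4 sets were thus fixed by the rule, and the backgrounds do not test them. The contrasts with age share their libraries with the rule, which favours that they also pass, so nothing is read from these counts.

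**Figure D4:**
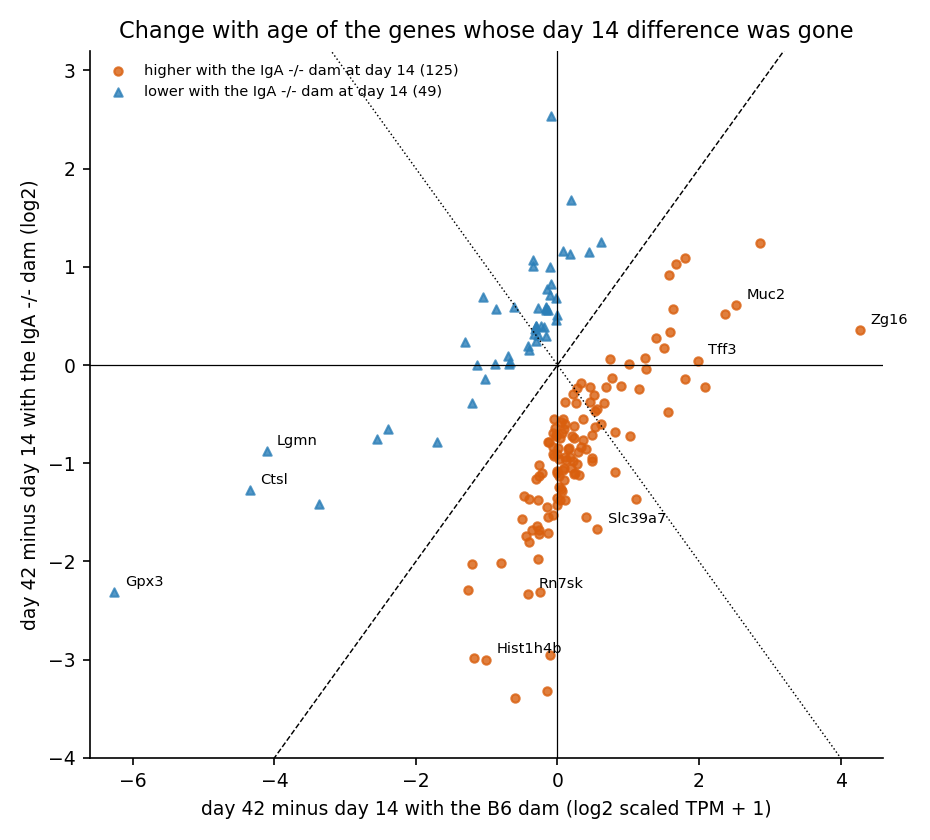
Change from day 14 to day 42 of the 174 gone genes with the B6 dam (x axis) and with the IgA -/- dam (y axis), both on the log2 scale; circles were higher and triangles lower with the IgA -/- dam at day 14, the dashed line marks equal change and the dotted line change of equal size and opposite sign. Muc2 and Zg16 lie to the right (2.52 and 4.27), Gpx3 to the left (-6.26), and Hist1h4b and Rn7sk at the bottom (-3.00 and -2.33).

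The 91 genes that fell further with the IgA -/- dam hold the small nuclear RNA Rn7sk, the vault RNA Vaultrc5 and 5 histone genes (Hist1h2ai, Hist1h4b, Hist1h2ah, Hist1h2bb and Hist1h3b), of a family whose replication-dependent members make mRNA without a poly(A) tail. Of 60 histone genes tested, these 5 passed between the days (8.33%, against 1.39% of genes tested), and 13 were higher and 2 lower at day 14, with medians of 0.16 at day 14 and 0.08 at day 42. Pseudogenes were 23.3% of the 86 genes of the 91 with an annotation, against 9.54% of genes tested and 2.94% of the 34 genes that rose further with the B6 dam. The median exon length of the 91 was 1490.5 bases, against 3292 over genes tested and 3111.5 in the 34. These are described only, and the higher share of TPM outside ribosomal and mitochondrial RNA in the same 3 libraries stands beside them; its part in the result was not tested. Of the 45 genes that passed with each library left out, 28 are in this set of 91, 7 in the set of 34 and 3 among the lower genes.

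Slc39a7, a zinc transporter of the endoplasmic reticulum and Golgi (chr17:34028269-34031682), had the smallest adjusted p of all. It had 1.97, 2.47 and 1.83 scaled TPM with the B6 dam and 13.0, 12.2 and 14.096 with the IgA -/- dam at day 14, and 3.33 to 3.67 against 3.21 to 3.52 at day 42. The dams were apart at day 14 with narrow spread and overlapped at day 42. Its change was -2.23 (SE 0.13, limma adjusted p = 5.7e-05), and it passed under every setting in which it could be tested. It fell by 1.67 with the IgA -/- dam and rose by 0.56 with the B6 dam.

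Hist1h4b, a histone H4 gene, had 25.2, 14.202 and 18.3 scaled TPM with the B6 dam and 76.6, 65.5 and 79.4 with the IgA -/- dam at day 14, and 7.15 to 10.9 in all 6 libraries at day 42. Its change was -1.99 (SE 0.28, limma adjusted p = 0.011), and reads of near-identical histone copies may be split among them. Rn7sk, the RNA that holds the elongation factor P-TEFb inactive, had 7738, 7243 and 5447 against 23199, 22784 and 21571 at day 14, and 3749.6 to 6132 at day 42. The dams were apart at day 14 and overlapped at day 42 in both. The change of Rn7sk was -1.92 (SE 0.32, limma adjusted p = 0.024), lost without the B6 dam day 14 replicate 1, the IgA -/- dam day 14 replicate 1, the B6 dam day 42 replicate 2 or the IgA -/- dam day 42 replicates 1 or 2 (limma adjusted p from 0.025 to 0.072 with 1 library left out). Cell cycle genes did not go with the histones: 0 of 28 passed between the days and 2 were lower at day 14 (against 4.8% of all genes tested), with medians of 0.00 and 0.06.

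The 27 genes that rose further with the IgA -/- dam include the ribosomal protein genes Rps19, Rps18, Rps4x and Rpl28. Of 80 protein-coding ribosomal protein genes tested, counted by name after these were seen, 5 changed upward and 1 downward between the days (7.5%, against 1.39% of genes tested). At day 14, 17 were lower and 5 higher (27.5%, against 10.6%), with medians of -0.17 at day 14 and 0.11 at day 42. Rps19 had 51.4, 44.0 and 54.8 scaled TPM with the B6 dam and 26.0, 34.7 and 27.2 with the IgA -/- dam at day 14, and 39.5 to 46.1 in all 6 libraries at day 42. Its change was 0.85 (SE 0.16, limma adjusted p = 0.038), which did not pass on TPM as deposited, nor in 8 of the 12 fits that left out a library (limma adjusted p from 0.023 to 0.096 with 1 library left out); those that kept it were without the B6 dam day 14 replicates 2 or 3, the IgA -/- dam day 14 replicate 2 or the B6 dam day 42 replicate 1. Rps18, Rps4x and Rpl28 changed by 0.74, 0.75 and 0.70. Pseudogenes were 38.5% of the 26 of this set with an annotation, many ribosomal protein copies exist, and reads may be split among them.

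**Figure D5:**
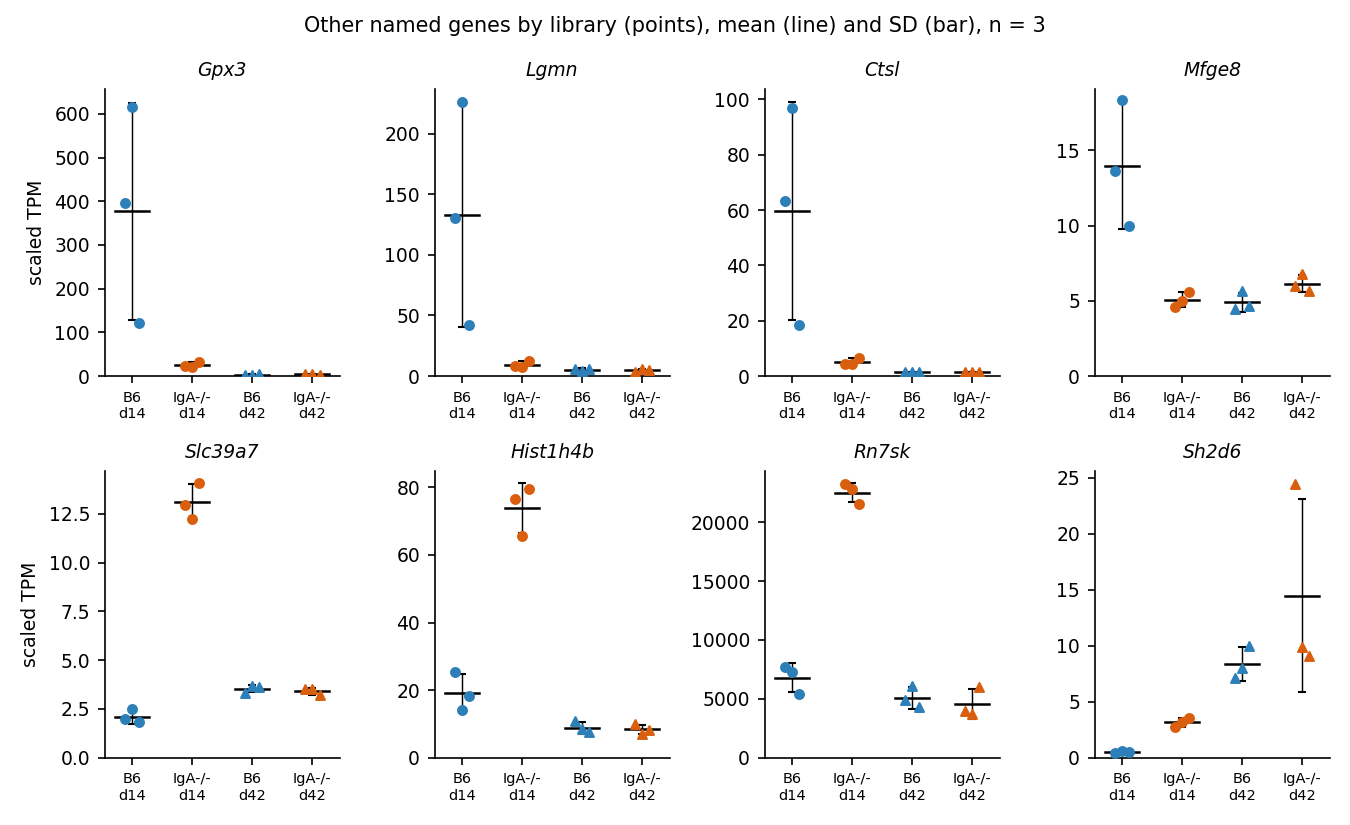
Scaled TPM of 8 further genes in each library (points), with the mean (line) and SD (bar) of 3 libraries, for the B6 dam (blue) and the IgA -/- dam (orange) at day 14 (circles) and day 42 (triangles). Gpx3, Lgmn and Ctsl are highest with the B6 dam at day 14. Slc39a7, Hist1h4b and Rn7sk are highest with the IgA -/- dam at day 14, while Sh2d6 is higher at day 42.

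The remaining lists showed few calls between the days. Over all genes tested 1.39% passed there, so a count of 0 in a short list is near that share. None of the genes of the adult enterocyte (19 tested), fat absorption (18), stem cell (17), unfolded protein response (22), interferon-stimulated (16), MHC class II (7), circadian (15), immediate early (14) and mitochondrially encoded (13) lists passed. The mitochondrially encoded genes had medians of -0.97 at day 14 and -0.03 at day 42. At day 14, 3 of 13 were lower (against 4.8% of all genes tested), among them mt-Nd2 (-1.36). That count was 0 on TPM as deposited, with no filter, and without any 1 of the B6 dam day 14 libraries or the IgA -/- dam day 14 replicates 1 or 2, and 7 without the B6 dam day 42 replicate 1 library. The day 14 median, less that of all genes, was -0.48 after quantile normalisation. The adult enterocyte and fat absorption medians at day 42, -0.60 and -0.63, became 0.23 and 0.02, less the median of all genes, without the B6 dam day 42 replicate 1 library. The interferon-stimulated medians were -0.48 at day 14 and -0.30 at day 42. At day 42, 6 of 16 had an unadjusted limma p under 0.05 (519 of 14925 genes tested) and 0 passed. At day 14, 1 was lower, or 8 without the B6 dam day 14 replicate 3 library, 9 with library weights and 0 on TPM as deposited. Of the genes with the smallest p at day 42, none passed. Ada, the purine enzyme of the villus tip, had 39.9, 13.0 and 16.5 scaled TPM with the B6 dam and 3.51, 11.96 and 5.13 with the IgA -/- dam. The difference was -1.60 (limma adjusted p = 0.97). Its values at day 14 overlapped, with means of 3.19 ± 0.804 and 3.11 ± 0.401 (SD, n = 3).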

How the data were processed

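RNA of sorted epithelial cells was measured in 12 libraries, 3 for each of 4 groups, grouped by the dam and day in the titles. The authors deposited TPM values for 53278 gene symbols. The mm10 genome, Bowtie2, Subread and DESeq2 are named per the submitters' processing notes, with no role or version. From these TPM values, multiplying by GENCODE M21 exon length gave whole reads for 93.7% of values above 0 (within 0.01 reads or a relative 0.0001). Library totals, from 31111 symbols whole in all 12 libraries, limit the precision of low genes. The reads carry no molecular identifiers.

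TPM was divided by median-of-ratios size factors. Genes that reached 1 TPM in 2 or more libraries were fitted on log2(scaled TPM + 1), a scale that understates changes of low genes, with limma 3.58.1 in R 4.3.3: 4 group means, an intensity trend, two-sided moderated tests, and Benjamini-Hochberg adjustment over 14925 genes. Tables and figures used Python 3.11.15, numpy 2.4.6, pandas 2.3.3 and matplotlib 3.10.9. The fit was tested on simulated data.

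Members and lists were chosen with earlier results of these data known. Named genes were the 12 most negative and 12 most positive changes between the days that passed, with a mean of at least 10 scaled TPM in the highest group and predicted genes left out. Further named genes were the 5 smallest p at day 42, up to 3 members of each of the 17 lists by p, and Igha, Pigr, Fcgrt, Epcam and Ptprc. Other members of the gone sets were chosen after their values were seen. Alternatives, 23 in all, covered scaling, pseudocount, filter, moderation, library weights, a replicate block, limma-voom on recovered reads and leaving out each library. No 2 libraries were duplicates: correlations within groups were at most 0.974. The closest pair lay across the dams, at 0.9797, between B6 dam day 42 replicate 2 and IgA -/- dam day 42 replicate 3.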

Additional observations from a re-analysis of the deposited data

Results flagged for a closer look

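The dam effect differed between day 14 and day 42 in 208 genes, by the test of the difference itself in limma with Benjamini-Hochberg adjustment. Groups of 3 libraries were not examined for single values that stand apart.

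Among the named genes the effect turned down from day 14 to day 42 in secretory and antimicrobial genes: by -5.06 in Reg3b, -3.91 in Zg16, -2.31 in Ccl6, -2.06 in Chga, -1.94 in Tff3, -1.94 in Fcgbp, -1.91 in Muc2, -1.85 in Mmp7 and -1.40 in Fer1l6 (log2). It did so in Slc39a7 (-2.23), Hist1h4b (-1.99), and the noncoding RNAs Vaultrc5 (-2.47) and Rn7sk (-1.92). It turned up in Gpx3 (3.95), Lgmn (3.23), Ctsl (3.07), Mfge8 (1.54), Mreg (1.21), Gaa (1.14), Galk1 (0.91), Lhpp (0.88), Cdo1 (0.87), Rps19 (0.85), Adgrg1 (0.82) and Tmem97 (0.79). Of these, Tmem97 passed in none of the fits that left out a library, and Cdo1 in 1.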

How the results depend on the processing

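No named gene that passed between the days changed sign under any alternative run, whereas the majority direction of the calls turned without the B6 dam day 14 replicate 3 library (53% positive between the days, 46.6% higher at day 14) and with library weights (52.3% and 45.3%). The change between the days passed in 208 genes, and in 128 after quantile normalisation, 75 with TPM recomputed without mitochondrial and the 50 highest genes, 105 with no filter and 1635 with library weights. The genes counted as gone numbered 174, and 104, 59, 82 and 1438 under the same settings. The day 14 count of 1586 became 2890 on TPM as deposited, 976 with no filter and 4546 with library weights. At day 42 a count of 0 held except with no filter (9). Counts with age under the B6 dam, 3100, became 1832 on TPM as deposited (28.4% higher, against 52.4%), 2063 with a TPM of at least 5 and 5378 with library weights, and under the IgA -/- dam 3953 became 7374 on TPM as deposited (4.14% higher, against 51.6%). Of the 208 genes, 124 passed on TPM as deposited. Leaving out 1 library gave 54 to 336 genes between the days, 45 to 299 gone and 641 to 2070 at day 14. The count between the days moved by over 1.5 times without each library except the B6 dam day 14 replicate 2 and day 42 replicate 1, and the day 14 count without B6 replicates 1 and 2 and each IgA -/- replicate of that day. With the replicate number as a block, 95 genes passed between the days, 76 had gone and 1196 passed at day 14. The numbers were not taken to pair the samples: of 18 same-numbered pairs 6 correlated above 0.1, and 3 of 12 libraries correlated best with their own number. The cause of these shifts was not tested. Depth limits genes under 1 scaled TPM at day 42.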
